A study of Anableps anableps with 4 samples.

Results

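The stromal connective spots of the adult eyes were 252 of the 2781 used spots of 2 adult sections of Anableps anableps, the four-eyed fish, and of 4695 used spots in the whole series. A spot is a small barcoded patch of a Visium array that reports the summed RNA of the tissue above it, so it can hold several cells. Used spots had at least 100 unique molecular identifiers (UMIs, each counting 1 captured RNA molecule). A used spot was called stromal when DCN, LUM, KERA and fmoda together held at least 3 UMIs and at least 0.5% of its UMIs, krt5 and krt15 together stayed under 1%, and crystallins, taken as symbols starting crya, cryb or cryg, under 20%. This gave 114 of 1293 used spots in adult eye 1 (8.82%, exact Clopper-Pearson 95% interval 7.33 to 10.5) and 138 of 1488 in adult eye 2 (9.27%, interval 7.85 to 10.9). Intervals here and below cover counting error only.

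The series holds 4 sections of fresh frozen tissue, cut at 10 µm, with adult eye 1 and adult eye 2 as the adult group, a stage 4 head as another group, and a single capture area shared by the head of stage 3 and an eye of stage 5, called the mixed section here. The labels give no genotype, treatment or age beyond the stage, and whether both adult eyes came from 1 animal is not stated. Any difference in processing between adult and developmental sections cannot be told apart from stage. The stromal spots held 172591 UMIs in adult eye 1 and 225760 in adult eye 2, with a median of 1339 and 1659.5 UMIs per spot. The other spots inside the same keratin and crystallin gates numbered 757 and 755, with medians of 1115 and 885 UMIs. Both adult sections share 1015 spot barcodes, which name array positions and not cells. With the section as a block, each p-value below sets a class difference against how far that difference disagreed between the 2 sections. The estimate of this spread borrowed from all genes, and spots were never used as replicates.

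In the vertebrate eye, connective tissue forms the transparent corneal stroma and the tough sclera, and fish have cartilage in the sclera. Keratocytes and scleral fibroblasts lay down collagen fibrils, and small leucine-rich proteoglycans bind these fibrils and control their width and spacing. DCN (decorin), LUM (lumican), KERA (keratocan) and fmoda (fibromodulin) belong to that family, and keratocan is known above all from the corneal stroma. Since levels here are sums over spots, more cells of a type and more RNA per cell cannot be told apart.

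The spots were chosen by the UMI shares of these 4 genes, of keratins and of crystallins, so the 4 genes are described without a test. DCN was at 13037 and 12713 CPM (counts scaled to a common library total) in the stromal spots of adult eye 1 and adult eye 2, against 658 and 636 CPM in the other spots inside the gates. LUM was at 1043 and 926 CPM in stromal spots, against 25.9 and 37.1 CPM. KERA was at 1246 and 1063 CPM in stromal spots, against 15.5 and 14.8 CPM. For fmoda the levels were 649 and 740 CPM in stromal spots, against 3 UMIs in the other spots of each section. DCN was present in every stromal spot, whereas KERA had a UMI in 68.4% of them in adult eye 1 and 50.7% in adult eye 2, and LUM in 57.9% and 55.8%. All 4 genes were found together in 33 of 114 spots in adult eye 1 and in 32 of 138 in adult eye 2, and 14 and 32 spots rested on 1 of the genes alone.

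Each marker was also read in spots that it had not helped to choose, by applying the same thresholds to the other 3 genes. KERA was 60.5-fold and 67.3-fold higher in spots chosen without it than in the other spots inside the gates, with 210 and 239 UMIs behind the higher levels. LUM read in the same way had 161 and 182 UMIs in 110 and 130 chosen spots, against 44 and 62 UMIs in 761 and 763 other spots. For fmoda, which hardly changed the choice, the ratios were 209 and 233 over only 3 UMIs in the other spots of each section. DCN carried most of the choice, and without it 25 spots were left in each section, with DCN at 19018 and 21463 CPM against 2072 and 2214 CPM. These are readings of the same spots and carry no test. Stromal connective markers outside the rule summed to 8842 and 8801 CPM in stromal spots, against 1550 and 1494 CPM in the other spots inside the gates.

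Members with a share of 0.5 to 0.6% numbered 8 and 19, with ptgdsb.1 at 4309 and 4229 CPM. Spots just outside, with 3 or more stromal UMIs and a share of 0.4 to 0.5%, numbered 11 and 4, with ptgdsb.1 at 6271 and 1042 CPM. In adult eye 1 the spots just outside were therefore no lower in this gene than the members just inside. The keratin gate left out 29 and 41 spots that were past the stromal threshold, and the crystallin gate 1 and 3.

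**Figure D1:**
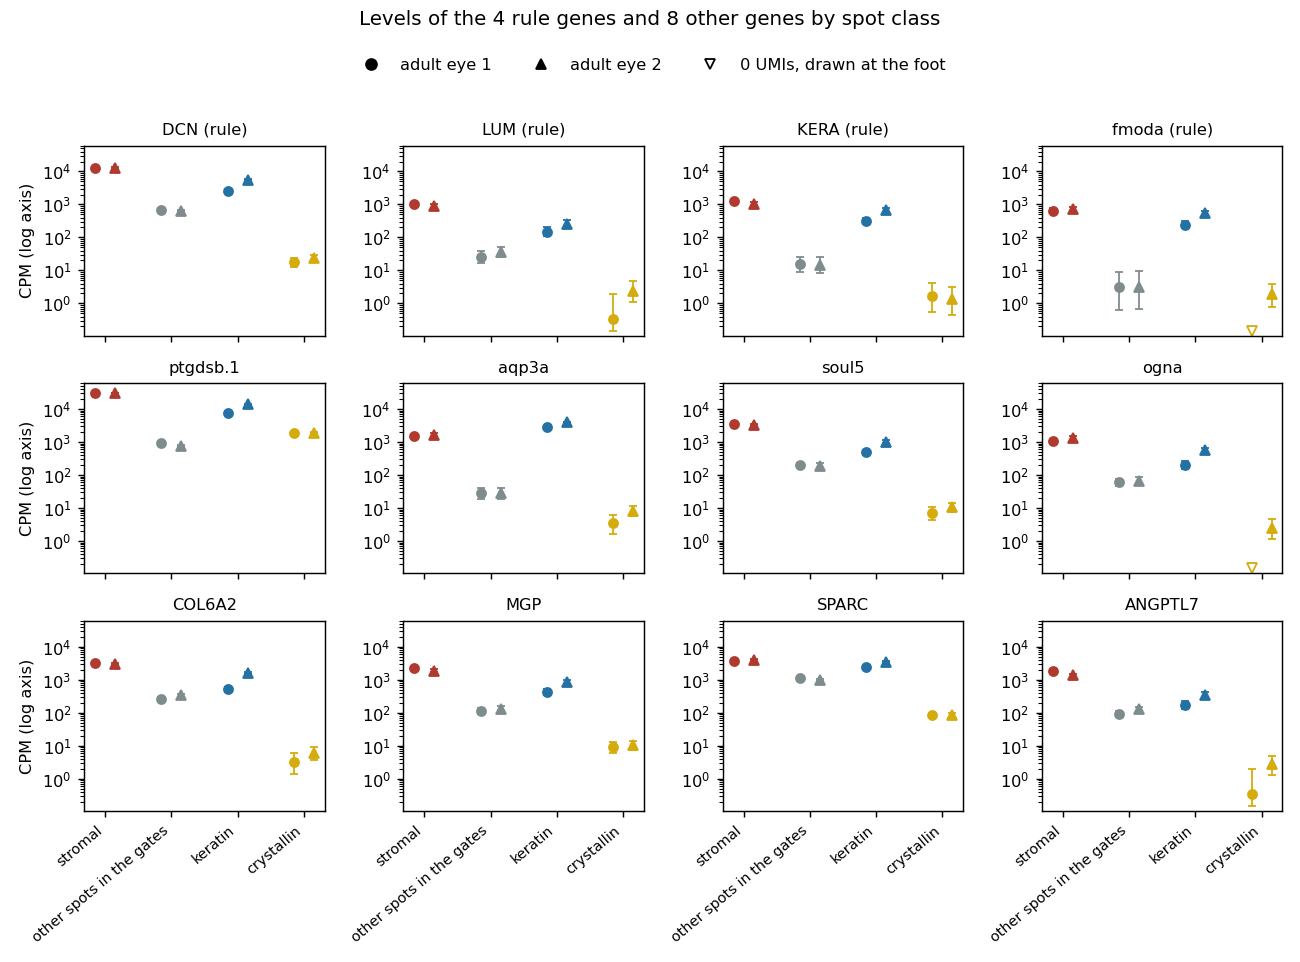
Levels in CPM on a log axis (vertical) of the 4 genes of the rule and of 8 other genes in stromal spots, other spots inside the gates, keratin spots and crystallin spots (horizontal); circles are adult eye 1, triangles adult eye 2, and bars are exact Poisson 95% intervals cut at the foot of the axis, where open triangles mark 0 UMIs. In stromal spots ptgdsb.1 stood at 30112 and 30958 CPM, above the other 3 classes, whereas aqp3a at 1535 and 1657 CPM lay below the keratin spots.

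The first comparison asked which other genes set these spots apart from tissue that passed the same gates. Against those spots, the symbol-bearing gene with the smallest adjusted p was ptgdsb.1, a fish lipocalin-type prostaglandin D synthase, which makes prostaglandin D2 and carries lipids. It was at 30112 CPM in stromal spots of adult eye 1 and 30958 CPM in those of adult eye 2, against 925 and 743 CPM in the other spots inside the gates. The fitted log2 fold was 5.75 ± 0.10 (SE, edgeR adjusted p = 7.0e-07). No symbol-bearing gene had more UMIs in the stromal spots, although other genes had steeper folds, among them aqp3a and PDYN. Of the 6349 genes tested, 520 were higher in stromal spots (8.19%) and 404 lower (6.36%), together 14.6% of genes tested and all in the same direction in both sections. Scaling by library size alone moved the median log2 fold of all genes by -0.57 and gave 320 higher and 1137 lower genes, so folds here are relative to the TMM scale.

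Other genes that are not matrix proteins by name were higher with it. The first, soul5, of the haem-binding SOUL family, was at 3447 and 3278 CPM in stromal spots, against 198 and 194 CPM in the other spots inside the gates (log2 fold 4.65 ± 0.15). mamdc2a, whose mammalian counterpart is a matrix proteoglycan, was at 1790 and 1745 CPM, against 115 and 99.6 CPM (log2 fold 4.60 ± 0.18). pnp5b, named for a purine nucleoside phosphorylase, was at 1443 and 1462 CPM, against 172 and 186 CPM. PDYN, the prodynorphin gene that encodes opioid peptides, was at 255 and 314 CPM, against 6.21 and 5.30 CPM (log2 fold 6.12 ± 0.35, edgeR adjusted p = 0.00011). The classes did not overlap for these 4 genes, but the genes were picked by adjusted p, so this adds no support. ccl44, a chemokine, was at 2399 and 3513 CPM in stromal spots, against 335 and 317 CPM. rbp2a, a cellular retinol-binding protein gene, was at 452 and 408 CPM, against 31.0 and 28.6 CPM.

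The water and glycerol channel gene aqp3a had one of the steepest folds inside the gates, at 6.36 ± 0.22 on the log2 scale. It was at 1535 and 1657 CPM in stromal spots, against 27.9 and 28.6 CPM in the other spots inside the gates. Keratin spots, which hold krt5 and krt15 at 1% or more, held more of it, so that stromal spots were lower there: 1535 and 1657 CPM against 2897 and 3943 CPM in keratin spots (log2 fold -1.14 ± 0.27, edgeR adjusted p = 0.0026). Of the surface epithelium list, 3 of 6 tested genes were higher in stromal spots than in the other spots inside the gates, and none lower. They were EPCAM, a surface adhesion protein of epithelia, at 69.5 and 168 CPM against 13.5 and 7.42 CPM, DSP and TP63. DSP and TP63 stood at only 3 counts, or 17.4 CPM, in the stromal spots of adult eye 1. With library size alone 2 of the 6 were higher, and with DESeq2 1 of the 4 with an adjusted p. Over all genes tested in the main fit 8.19% were higher. The part of epithelium in the aqp3a level was not tested.

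To set shares of spots side by side, each spot was thinned to 500 UMIs, which left out 6 and 12 stromal spots, 150 and 244 of the other spots inside the gates, and 68 and 184 of the crystallin spots (those with 20% or more crystallin UMIs). After thinning, aqp3a had a UMI in 50.9% and 42.9% of stromal spots, against 0.988% and 1.37% of the other spots inside the gates. Crystallin spots, with medians of 3219 and 1038.5 UMIs before thinning, gave 0.83% and 0.685% as a background for aqp3a. These shares rest on 2 of 241 and 2 of 292 thinned crystallin spots. Without thinning the stromal shares of aqp3a were 71.9% and 56.5%. For ptgdsb.1 the thinned shares were 95.4% and 88.1% in stromal spots, against 20.1% and 19.6% in the other spots inside the gates, but crystallin spots reached 51.9% and 54.8%. Crystallin spots are thus no background for ptgdsb.1. ANGPTL7, an angiopoietin-like protein gene known from human corneal stroma, had a UMI in 51.9% and 36.5% of thinned stromal spots, against 1.98% and 2.54% of the other spots inside the gates.

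The collagens that passed the filter were higher inside the gates. Of 14 collagen genes in the list, 6 passed the filter on low counts and all 6 were higher, beside 8.19% of all genes tested. Their median log2 fold was 4.59 beside -0.07 over all genes tested. COL6A2, a chain of the beaded-filament collagen VI, was at 3250 and 3003 CPM in stromal spots, against 268 and 338 CPM in the other spots inside the gates (log2 fold 3.93 ± 0.19, edgeR adjusted p = 5.2e-05). COL6A6, another collagen VI chain, was at 255 and 346 CPM, against 23.8 and 35.0 CPM. Of the fibrillar collagen I genes, col1a1b was at 180 and 57.6 CPM, against 2.07 and 3.18 CPM (log2 fold 5.93 ± 0.54), so that its sections differed within the stromal class. Its paralog col1a1a, COL6A3 and col6a1 were also higher. The other 8 did not pass the filter. With DESeq2 only 3 of the 6 had an adjusted p, and all 3 were higher. A gene could pass on its stromal sums alone, as col1a1b did with few UMIs in the other spots. The count of higher genes and the list's median can therefore be partly set by the filter, here and in the lists below.

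The proteoglycans outside the rule behaved alike. Of 14 listed genes, 6 passed the filter and all 6 were higher, beside 8.19% of all genes tested, with a median log2 fold of 2.75. ogna (osteoglycin, which in mammals helps to control fibril width) was at 1095 and 1316 CPM in stromal spots, against 60.0 and 66.7 CPM in the other spots inside the gates (log2 fold 4.79 ± 0.21, edgeR adjusted p = 4.3e-05). PRELP, which anchors basement membranes to connective tissue, was at 353 and 439 CPM, against 83.8 and 79.5 CPM. bgnb (biglycan), at 400 and 310 CPM against 175 and 174 CPM, had the smallest fold of the 6. The others were ECM2, PODN and vcana (versican).

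Enzymes that shape collagen were higher in part. Of 11 tested genes of collagen processing, 6 were higher and none lower, beside 8.19% and 6.36% of all genes tested. Lysyl oxidases cross-link collagen fibres, and among them loxl2a was at 203 and 186 CPM in stromal spots, against 10.3 and 11.7 CPM in the other spots inside the gates (log2 fold 4.66 ± 0.33). loxa was at 492 and 523 CPM, against 95.2 and 83.7 CPM. LOXL1, loxl3b, CRTAP and P4HB made up the rest. The collagen chaperone SERPINH1 was not called, at 46.4 and 62.0 CPM against 38.3 and 56.2 CPM. With library size alone 3 of the 11 were higher, and with DESeq2 also 3. Higher calls over all 6349 genes fell as well, from 520 to 320 with library size alone and to 251 with DESeq2.

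Matrix glycoproteins were higher for 9 of 16 tested genes and lower for none, beside 8.19% and 6.36% of all genes tested. MGP (matrix Gla protein, an inhibitor of calcification) was at 2202 and 1856 CPM in stromal spots, against 114 and 129 CPM in the other spots inside the gates (log2 fold 4.61 ± 0.21, edgeR adjusted p = 4.3e-05). SPARC, a collagen-binding glycoprotein, was at 3784 and 3863 CPM, against 1126 and 1002 CPM (log2 fold 2.40 ± 0.13). The thrombospondins thbs4b, at 371 and 439 CPM against 29.0 and 25.4 CPM, and THBS2, at 545 and 470 CPM against 41.4 and 56.2 CPM, were higher as well, as was periostin (postnb). Elastic-fibre genes gave no calls: MFAP5 had 75.3 and 75.3 CPM against 96.3 and 137 CPM, and FBLN5 had 40.6 and 48.7 CPM against 34.2 and 25.4 CPM.

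Matrix turnover genes were higher for 8 of 13 tested genes, on the side of inhibitors and of proteases alike, beside 8.19% of all genes tested. timp2a, an inhibitor of metalloproteinases, was at 1014 and 1041 CPM in stromal spots, against 307 and 351 CPM in the other spots inside the gates (log2 fold 2.20 ± 0.19). TIMP3, of the same family, was at 180 and 239 CPM, against 59.0 and 69.9 CPM. The collagenolytic protease MMP2 was at 46.4 and 31.0 CPM, against 7.24 and 4.24 CPM. The membrane-bound proteases mmp14a, mmp14b and mmp15a and the protease inhibitor SERPINE2 were also among the calls. With library size alone 4 of the 13 genes were higher and 1, the lysosomal protease gene ctsd, lower, and with DESeq2 3 were higher.

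Signals and receptors were mixed. Of 16 tested genes of growth factor signalling 8 were higher and 2 lower, beside 8.19% and 6.36% of all genes tested. With library size alone 6 were higher and 2 lower, and with DESeq2 4 and 0 of the 11 with an adjusted p. FRZB, a secreted Wnt antagonist, was at 585 and 890 CPM in stromal spots, against 302 and 335 CPM in the other spots inside the gates (log2 fold 1.74 ± 0.21). The matricellular genes ccn2a, at 504 and 501 CPM against 187 and 210 CPM, and CCN1 were higher, and so was the growth factor igf2b, at 180 and 239 CPM against 69.3 and 61.5 CPM. vegfab, an angiogenic growth factor gene, fell to 23.2 and 13.3 CPM in stromal spots, against 103 and 99.6 CPM. bmp7b had 0 UMIs in the stromal spots of both sections and was at least 1.75-fold lower, taking 3 counts per section as the floor. Among receptors of fibroblasts, PDGFRA was at 290 and 439 CPM, against 40.4 and 33.9 CPM (log2 fold 3.82 ± 0.30). Of 11 tested fibroblast identity genes 3 were higher, PDGFRA, prrx1b and SERPINF1, and 8 were not called. The median log2 fold of that list was -0.01 beside -0.07 over all genes tested, of which 8.19% were higher.

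**Figure D2:**
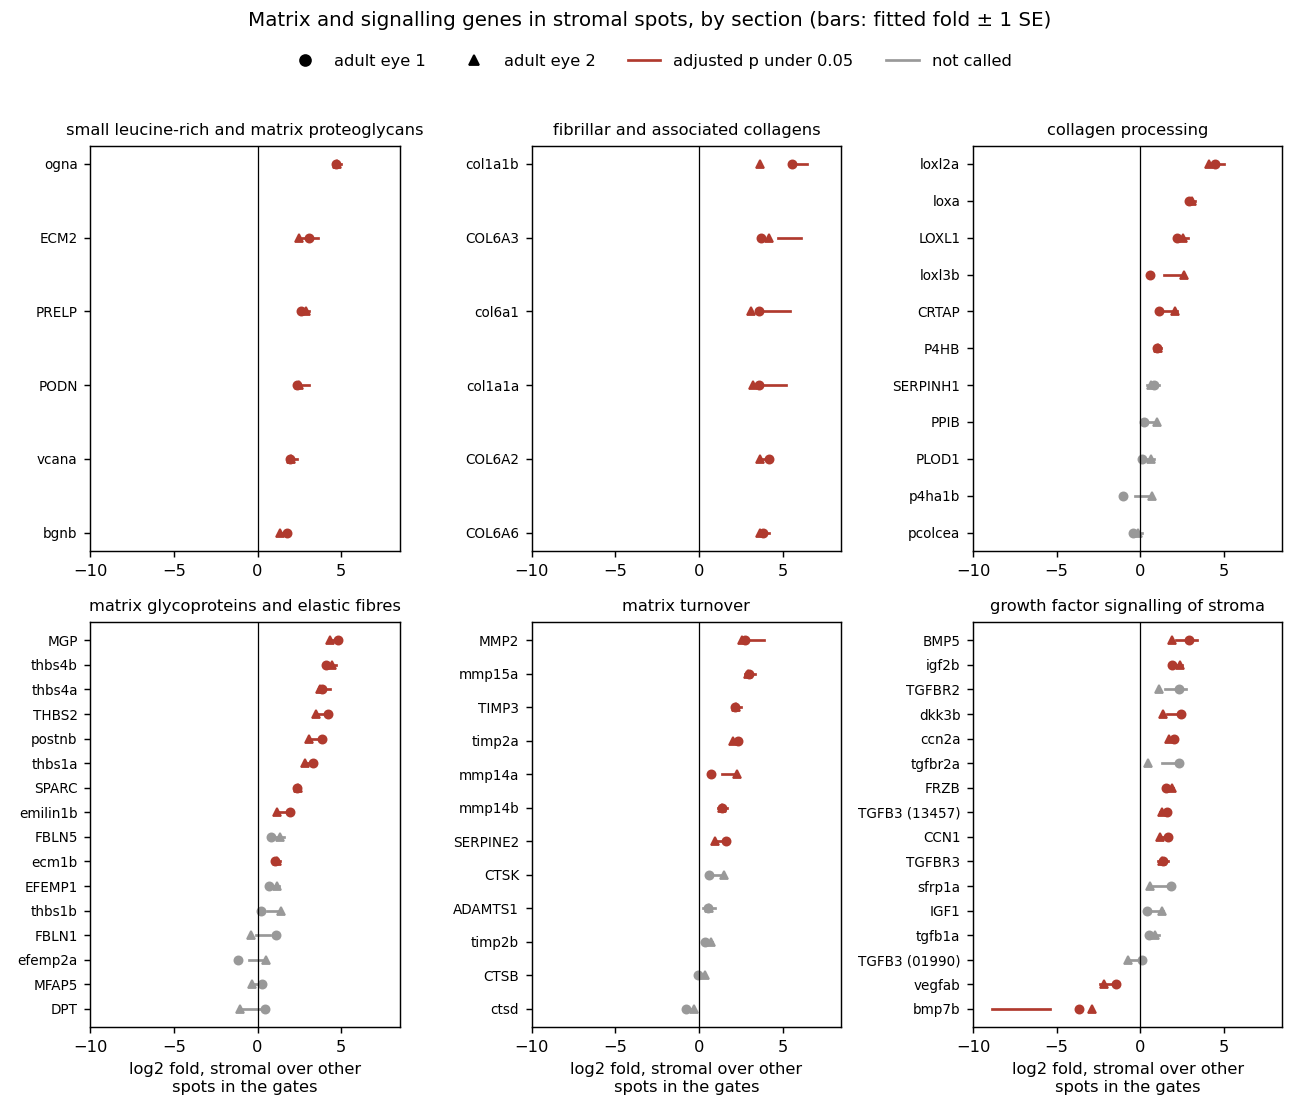
Log2 fold of stromal spots over the other spots inside the gates (horizontal) for the tested genes of 6 lists (vertical), leaving out 1 matrix turnover gene; circles and triangles are adult eye 1 and adult eye 2 with a prior count of 2, which draws genes with few UMIs towards 0, and bars span the fitted fold ± 1 SE. All 6 collagens and all 6 proteoglycans lie right of 0, and bmp7b, with 0 UMIs in stromal spots, lies at the far left.

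Corneal enzymes did not move as a group, with 2 of 9 tested genes higher and 3 lower, beside 8.19% and 6.36% of all genes tested. ANGPTL7 was at 1877 and 1364 CPM in stromal spots, against 93.1 and 128 CPM in the other spots inside the gates (log2 fold 4.41 ± 0.28, edgeR adjusted p = 0.0002). TKT (transketolase, an abundant enzyme of the mammalian cornea; ENSABLG00000019192) was at 695 and 660 CPM, against 375 and 336 CPM. The glycolytic gene eno1a fell to 371 and 372 CPM in stromal spots, against 4999 and 5145 CPM (log2 fold -3.22 ± 0.14, edgeR adjusted p = 4.3e-05). Its paralog eno1b fell to 0 and 13.3 CPM, against 158 and 157 CPM, and the carbonic anhydrase gene CA2 was lower too.

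The genes that were lower in stromal spots included genes of retina, muscle, nerve and blood. Inner retina genes were lower for 7 of 11 tested, photoreceptor genes for 6 of 10, skeletal muscle genes for 7 of 11, nerve and glia genes for 4 of 7 and blood genes for 3 of 3. Over all genes tested 6.36% were lower. With DESeq2, among genes with an adjusted p, these counts were 5 of 8, 3 of 6, 7 of 10, 3 of 5 and 2 of 3. On the other side, glula of the inner retina list (ENSABLG00000001205, log2 fold 2.05 ± 0.27) and ACTA1 of the muscle list (3.58 ± 0.28) were higher. RBPMS2, a marker of retinal ganglion cells, fell to 34.8 and 17.7 CPM in stromal spots, against 933 and 1115 CPM. GNAT1, the transducin subunit of rods, fell to 52.1 and 48.7 CPM, against 405 and 345 CPM. The synuclein gene SNCB had 0 UMIs in stromal spots and was at least 16.1-fold lower, and the nerve growth gene GAP43, also at 0, at least 4.11-fold lower. The blood list still summed to 3221 and 10436 CPM in stromal spots, against 30043 and 28371 CPM, so adult eye 2 carried more of it. With spots of 1% or more blood or muscle UMIs left out on both sides, a setting added after the data had been seen, the log2 folds of the muscle genes CKM, MYLPF, TNNT3 and TNNC2 (ENSABLG00000021103) turned to 2.69, 2.72, 1.47 and 3.48, and those of the hbaa2 copies to 0.18 and 0.21.

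Lens genes outside the rule lay on the stromal side. Over the whole lens list of 37 genes the sum, which is mostly crystallins that the rule held under 20% and so a description only, was 51799 and 44321 CPM in stromal spots, against 17843 and 18358 CPM in the other spots inside the gates, with 32 and 31 of its genes detected in stromal spots. The list and the crystallin gate go by symbol and miss ENSABLG00000018858 (picked after its values were seen) and si:dkey-57a22.13. In crystallin spots these were at 145152 and 176739 CPM and at 92463 and 87420.5 CPM. In stromal spots they were at 29358 and 24203 CPM and at 8784 and 6108 CPM. The sum therefore leaves out RNA that is highest in crystallin spots. Of the 4 tested lens genes outside the rule all 4 were higher, beside 8.19% of all genes tested. Among these 4 was the beaded-filament gene BFSP1, at 753 and 682 CPM against 130 and 164 CPM. The single stromal spots ranged in crystallin share up to 19.5% and 19.4%. Keeping on both sides only spots with crystallins under 5%, a setting added after the data had been seen, left 75 stromal spots in adult eye 1 and gave 518 higher and 577 lower genes, 437 and 397 of them shared with the calls above. The part of lens RNA in single calls was not tested.

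A second comparison set the stromal spots against the 113 and 119 keratin spots, which carry the keratins of surface epithelium and also hold stromal genes. Here 509 of 2391 tested genes were higher in stromal spots (21.3%) and 438 lower (18.3%), together 39.6% of genes tested. DCN was at 13037 and 12713 CPM in stromal spots, against 2536 and 5698 CPM in keratin spots. Of the matrix lists, 5 of 6 tested proteoglycans, 3 of 4 collagens and 8 of 14 matrix glycoproteins were higher. DESeq2 gave fewer calls, with 3 of 6 proteoglycans, 1 of 3 collagens and 5 of 13 matrix glycoproteins higher among those with an adjusted p. SPARC was not called, at 3784 and 3863 CPM in stromal spots against 2371 and 3530 CPM in keratin spots. Periostin reversed, as postnb fell to 319 and 297 CPM in stromal spots, against 906 and 1086 CPM in keratin spots (log2 fold -1.75 ± 0.29, edgeR adjusted p = 9.1e-05).

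The symbol-bearing gene with the smallest adjusted p on the stromal side was FRZB, at 585 and 890 CPM in stromal spots against 18.3 and 43.7 CPM in keratin spots (log2 fold 4.53 ± 0.37, edgeR adjusted p = 6.6e-08). ccl44 was at 2399 and 3513 CPM, against 223 and 219 CPM, and RBP4, the retinol carrier, at 539 and 647 CPM, against 3.65 and 37.0 CPM. hapln1a, a link protein of hyaluronan matrices, was at 180 and 93.0 CPM in stromal spots and had 0 UMIs in keratin spots, so that it was at least 9.22-fold higher. All 6 tested cartilage genes were higher in stromal spots, among them COL2A1 at 284 and 270 CPM against 76.7 and 70.6 CPM, but with DESeq2 1 of the 5 with an adjusted p was higher. Tested genes of most lists of other tissues were higher too: blood (2 of 2), immune cells (3 of 3), lens (4 of 4), smooth muscle (3 of 3), endothelium (3 of 3), photoreceptors (3 of 3), nerve and glia (2 of 2) and skeletal muscle (5 of 7, with 1 lower). Over all genes tested against keratin spots 21.3% were higher. Median log2 folds were 3.77 for the smooth muscle list and 3.03 for photoreceptors, beside 1.69 for the collagens. Among genes with an adjusted p in DESeq2, blood (2 of 2), immune (3 of 3) and lens genes (3 of 4) were higher. Smooth muscle (0 of 3), endothelium (0 of 1), photoreceptors (0 of 1) and nerve and glia (0 of 2) gave no calls there. Skeletal muscle gave 1 higher and 1 lower of 6. These lists rest on few tested genes, and their part in the other calls was not tested.

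Epithelial genes were on the keratin side. TP63, the regulator of stratified epithelium, fell to 17.4 and 48.7 CPM in stromal spots, against 332 and 494 CPM in keratin spots. DSP (desmoplakin) fell to 17.4 and 35.4 CPM, against 409 and 434 CPM. The lipid carrier apoeb fell to 1449 and 1736 CPM, against 12480 and 14475 CPM (log2 fold -3.14 ± 0.32). ACTA1, an actin known from skeletal muscle, fell to 406 and 527 CPM, against 9437 and 7096 CPM, while other muscle genes such as MYLPF, at 232 and 594 CPM against 54.8 and 63.9 CPM, were higher in stromal spots. The simple-epithelium keratins krt8, at 1895 and 2042 CPM against 256 and 440 CPM, and krt18b were higher in stromal spots.

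Against all other used spots of a section together, 666 of 8159 tested genes were higher in stromal spots (8.16%) and 915 lower (11.2%), together 19.4%. Crystallin spots held 67.3% and 71.6% of all UMIs in the adult sections, and this comparison turned with the scaling: library size alone gave 2462 higher and 217 lower genes and moved the median log2 fold by 1.05. No gene is therefore described from it here, apart from the reversals listed in the section on processing.

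The stromal spots differed among themselves. KERA had a UMI in 78 stromal spots of adult eye 1 and 70 of adult eye 2, and none in the other 36 and 68. Median depth was 1334.5 and 1752 UMIs in spots with KERA, against 1345.5 and 1345 UMIs in those without. The split also sorts the spots by the rule's other genes, as DCN was at 15113 and 16349 CPM in spots with KERA, against 8277 and 8089 CPM in those without. For fmoda the levels were 849 and 1147 CPM with KERA, against 191 and 221 CPM. LUM went the other way, at 849 and 696 CPM with KERA, against 1488 and 1217 CPM without. Of 974 tested genes, 97 were higher in spots with KERA (9.96%) and 123 lower (12.6%), together 22.6% and all in the same direction in both sections. Library size alone gave 62 higher and 190 lower and moved the median log2 fold by -0.28, and spots with a stromal share of at least 1% gave 36 and 37. The part of the stromal share in single genes was not tested. KERA also helped to choose the spots, so the calls and p-values of this split are a description and no independent support.

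Spots with KERA held more of the genes that led the comparison inside the gates. pnp5b was at 1856 and 2232 CPM in spots with KERA, against 496 and 483 CPM in those without (log2 fold 2.29 ± 0.23, edgeR adjusted p = 1.3e-07). soul5 was at 4228 and 4811 CPM, against 1659 and 1328 CPM, and mamdc2a at 2239 and 2540 CPM, against 763 and 734 CPM. aqp3a was at 1947 and 2540 CPM, against 591 and 533 CPM. These values did not overlap between the groups, which adds no support since the genes were picked by adjusted p. Among matrix genes the same direction held for ogna at 1340 and 1923 CPM against 534 and 543 CPM, MGP at 2605 and 2556 CPM against 1278 and 966 CPM, and COL6A2 at 3820 and 3624 CPM against 1945 and 2213 CPM. TKT was at 841 and 981 CPM, against 362 and 252 CPM (log2 fold 1.84 ± 0.26, ENSABLG00000019192). ptgdsb.1 was higher as well, at 33855 and 44157 CPM against 21532 and 14176 CPM, with a log2 fold of 1.36 ± 0.39 (edgeR adjusted p = 0.012). PDGFRA was higher, at 350 and 601 CPM against 153 and 231 CPM, but DESeq2 called 0 of the 6 genes of its fibroblast identity list.

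Another set of matrix genes was lower where KERA was present. THBS2 fell to 200 and 142 CPM in spots with KERA, against 1335 and 885 CPM in those without (log2 fold -2.47 ± 0.26, edgeR adjusted p = 2.5e-07). FRZB fell to 300 and 142 CPM, against 1240 and 1841 CPM. postnb fell to 66.6 and 127 CPM, against 896 and 513 CPM (without the keratin and crystallin gates its log2 fold was 0.13), and vcana to 8.32 and 0 CPM, against 324 and 342 CPM. CLEC3A, a C-type lectin of cartilage in mammals, fell to 33.3 and 7.91 CPM, against 858 and 1137 CPM. Its sums rest on few spots, with a UMI in 11 of 114 and 24 of 138 stromal spots. THBS2 had a UMI in 32 and 32 of them, and FRZB in 27 and 52. In all, 6 of 12 tested matrix glycoproteins were lower and 2 higher, beside 12.6% and 9.96% of all genes tested. The list's median log2 fold was -1.36 beside 0.02 over all genes tested. DESeq2 gave 3 lower and 1 higher of the 11 with an adjusted p. IGF1, a growth factor gene, had 0 UMIs in spots with KERA and was at least 7.64-fold lower.

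In the sums over spots, cartilage genes were lower in spots with KERA. Of 6 tested cartilage and bone genes 5 were lower in spots with KERA, beside 12.6% of all genes tested. With DESeq2 3 of the 4 with an adjusted p were lower. COL9A2, a chain of the cartilage collagen IX, fell to 16.6 and 15.8 CPM, against 324 and 423 CPM, and the cartilage proteoglycan gene acanb (aggrecan) to 25.0 and 15.8 CPM, against 229 and 413 CPM. col9a3 and CNMD (chondromodulin) had 0 UMIs in spots with KERA and were at least 7.63-fold and at least 3.82-fold lower. COL2A1 was not called, at 258 and 190 CPM against 343 and 372 CPM. Over the 21 genes of the list the sum was 424 and 380 CPM in spots with KERA, against 1659 and 2002 CPM, with 7 and 6 genes detected against 11 and 12. Across single stromal spots, the Spearman correlation of the list's share with KERA was only -0.0017 and -0.16. The median stromal spot held 0% of its UMIs in this list, and 1 and 2 spots reached 1%, so the sums rest on few spots.

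Markers of other tissues also split along KERA. The blood list summed to 890 and 760 CPM in spots with KERA, against 8563 and 22738 CPM in those without. The skeletal muscle list summed to 649 and 934 CPM, against 1983 and 4558 CPM. Of its 7 tested genes 6 were lower and 1 higher, beside 12.6% and 9.96% of all genes tested. MYLPF was among the lower ones, at 91.5 and 47.5 CPM against 553 and 1288 CPM. The complement genes C1QA, at 150 and 158 CPM against 572 and 563 CPM, and C1QB, which mark macrophages, were lower as well. With DESeq2, among genes with an adjusted p, 0 of 3 immune genes and 3 of 5 skeletal muscle genes were called lower. The lens list went the other way, at 64523 and 57776 CPM in spots with KERA against 22638 and 27216 CPM. When spots with 1% or more of the blood or the skeletal muscle list were left out, a setting added after the data had been seen, 10 genes were higher and 28 lower among 667 tested, and those 10 and 28 all lay within the 97 and 123. With crystallins under 5% on both sides, also added afterwards, 64 were higher and 79 lower. The part of these tissues in single genes was not tested.

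**Figure D3:**
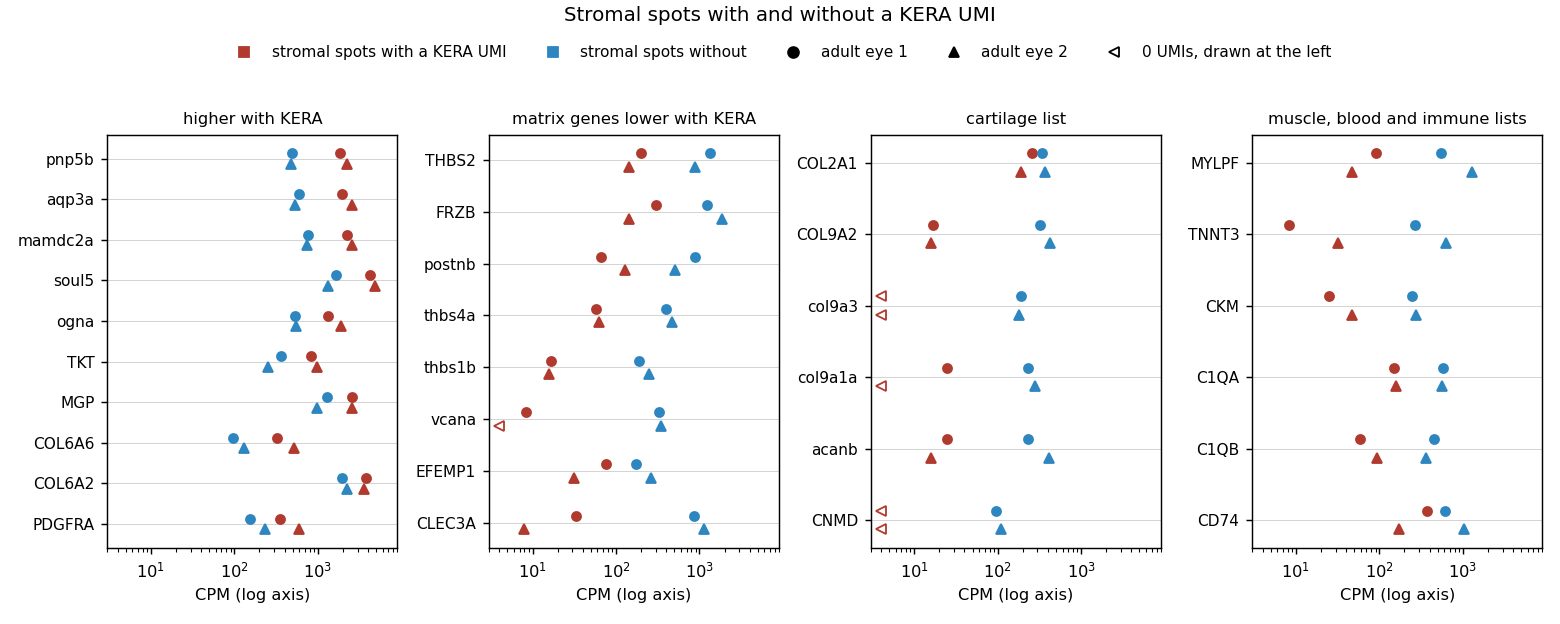
Levels in CPM on a log axis (horizontal) of genes (vertical) in stromal spots with a KERA UMI (red) and without (blue), for adult eye 1 (circles) and adult eye 2 (triangles); open triangles at the left mark 0 UMIs. The first panel has the red points to the right, such as pnp5b at 1856 and 2232 CPM against 496 and 483 CPM, and the other panels have them to the left, with COL2A1 as the closest pair. Not every list member is drawn, and the skeletal muscle list also holds 1 gene that was called higher with KERA.

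Across single spots, described by Spearman correlation with no test since spots share a section and a library, KERA rose and fell with DCN (rho 0.58 over 114 spots and 0.71 over 138). For LUM rho was 0.04 and 0.00 against KERA and 0.01 and -0.06 against DCN. LUM without KERA was found in 18 spots of adult eye 1 and 34 of adult eye 2, and KERA without LUM in 30 and 27. ptgdsb.1 correlated with DCN at 0.52 and 0.63 and with KERA at 0.24 and 0.68. It made up a median of 291 and 273 per 10000 UMIs of a spot and at most 886 and 1088. FRZB was opposed to KERA, at -0.37 and -0.51, and CLEC3A at -0.26 and -0.41. THBS2 was less so, at -0.28 and -0.12. Since DCN, LUM and KERA chose the spots, the correlations among them are shaped by the rule, also where they are near 0.

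**Figure D4:**
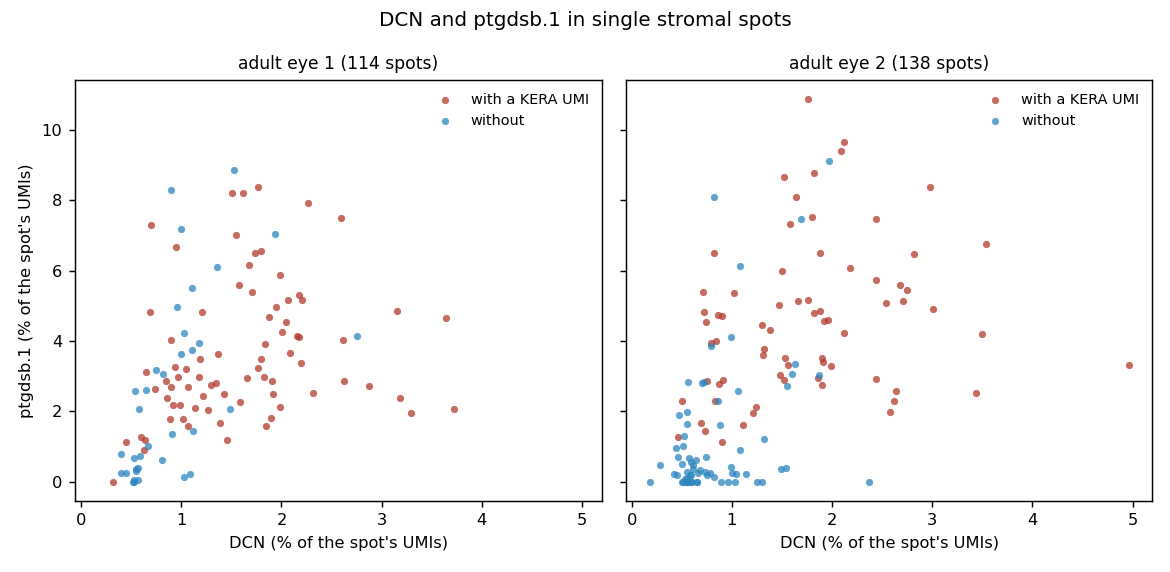
Share of UMIs held by ptgdsb.1 (vertical) and by DCN (horizontal), in percent, in each stromal spot of adult eye 1 (left) and adult eye 2 (right), red for spots with a KERA UMI and blue for spots without. In adult eye 2 many blue spots lie near the foot, and the Spearman correlations are 0.52 over 114 spots and 0.63 over 138 spots.

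The same rule found 131 stromal spots in the stage 4 head and 48 in the mixed section. These sections hold whole heads with other connective tissue, each group has 1 section, and no test was made. A gene was counted where the smallest ratio between any adult and any developmental section reached 4, among 804 genes with at least 50 UMIs in 1 of the groups. By that rule 43 genes were higher in adult stromal spots (5.35%) and 8 lower (0.995%). Of the 43, 9 were crystallins of the rule, and none of the 8 were. That left 34 higher among 776 genes outside the rule (4.38%). These 34 still include si:dkey-57a22.13, which is highest in crystallin spots, with a smallest ratio of 59.7. In every section the rule sets the level of its own genes in part, so these are given with no comparison: DCN stood at 13037 CPM (adult eye 1), 12713 CPM (adult eye 2), 10776 CPM for the stage 4 head and 12663 CPM in the mixed section. KERA was at 1246 and 1063 CPM in adult eyes, 327 CPM for the stage 4 head and 1103 CPM in the mixed section.

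MGP was at 2202 and 1856 CPM in adult eyes, against 121 CPM for the stage 4 head and 125 CPM in the mixed section, with a smallest ratio of 14.8. ptgdsb.1 was at 30112 and 30958 CPM in adult eyes, against 4182 and 4558 CPM, with a smallest ratio of 6.61. The lysosomal protease CTSB was at 371 and 363 CPM, against 38.4 and 34.1 CPM, and the secreted chaperone CLU at 1078 and 1023 CPM, against 159 and 79.6 CPM. aqp3a, soul5 and pnp5b were also higher in both adult eyes but missed the ratio of 4, at 3.14, 2.88 and 2.95. The proteoglycan list outside the rule summed to 2121 and 2343 CPM in adult eyes, against 2802 and 2774 CPM. The collagen list summed to 3859 and 3530 CPM in adult eyes, against 4404 and 10185 CPM. SPARC was at 3784 and 3863 CPM in adult eyes, against 6591 and 7548 CPM.

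Among the 8 lower genes, APOD, a lipocalin that carries lipids, had 0 and 13.3 CPM in adult stromal spots, against 3932 and 55018 CPM in the developmental sections. The embryonic-type globin genes hbbe2 and hbae5 and the fatty acid binding gene fabp7b, at 11.6 and 8.86 CPM against 631 and 364 CPM, were in this group too. Lens genes were among the 43 higher ones: crygm6 was at 6095 and 6073 CPM in adult eyes, against 43.9 and 11.4 CPM. Lens, blood and cartilage differ between these sections as whole tissues, and their part in the single ratios cannot be told apart from stage.

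**Figure D5:**
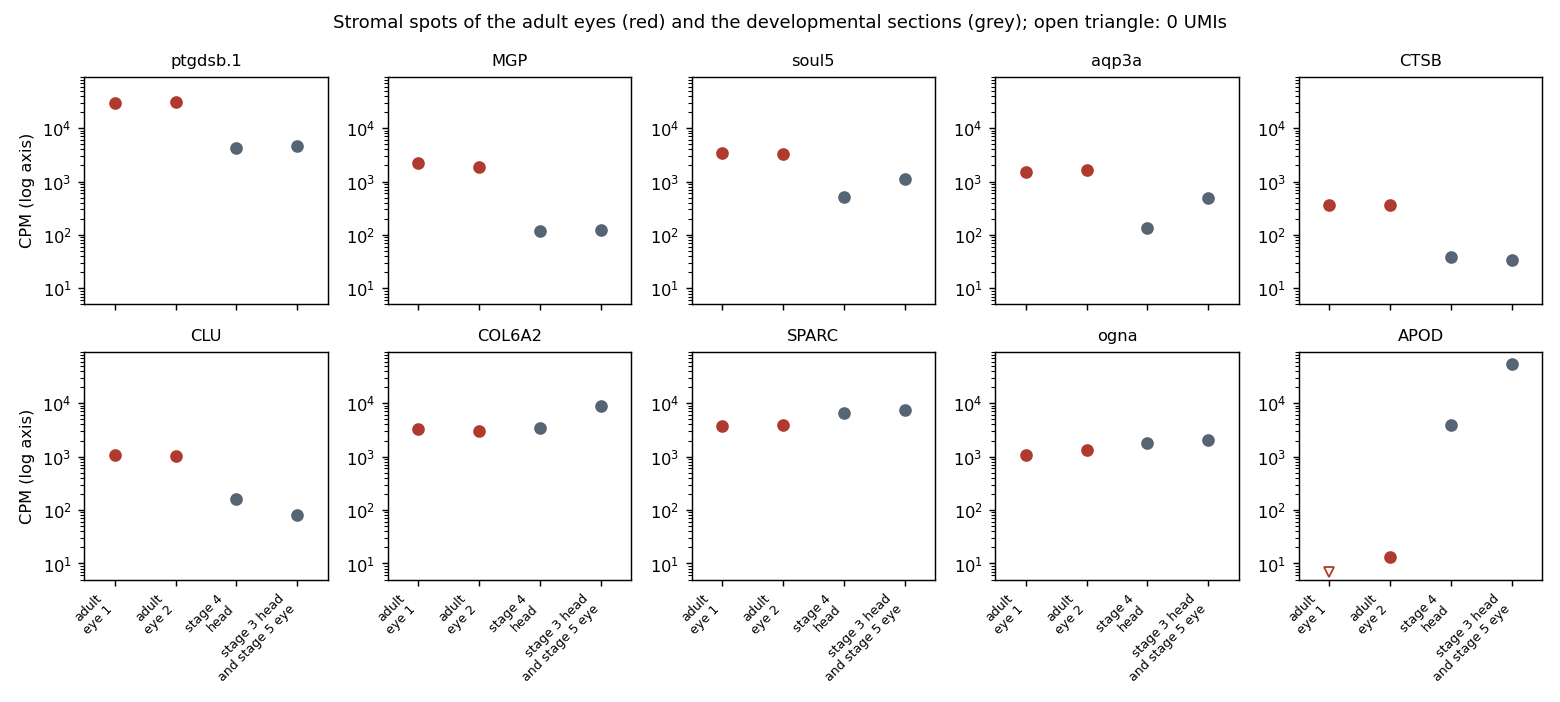
Levels in CPM on a log axis (vertical) of 10 genes in the stromal spots of each section (horizontal), adult eyes in red and developmental sections in grey; an open triangle marks 0 UMIs. ptgdsb.1 and MGP are higher in both adult eyes, and APOD is at 0 and 13.3 CPM there against 3932 and 55018 CPM.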

How the data were processed

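Spatial RNA was measured on Visium arrays in 4 sections. The deposited counts are whole-number UMI counts per gene and spot, not normalized, made with Space Ranger 3.1.3 per the file headers. Of 22934 genes, 17517 carry a symbol, and the others keep their identifiers. No genome or sequence table was used here, so no sequence or coordinate is given.

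For each section the UMIs of a class's spots were added up, and CPM with exact Poisson 95% intervals were computed from these sums. Spots were not tested as replicates, positions were not used and no doublet caller was run, since a spot is a region. The sums were compared with edgeR 4.0.16 (quasi-likelihood test, TMM, filterByExpr, R 4.3.3) with the section as a block, because both sums of a comparison come from the same section. The filter took the class as its group, so a gene could pass on the sums of a single class, including the class where it was high. P-values were adjusted over all genes tested by Benjamini-Hochberg, and the 34 genes of the rule, which are the 4 stromal genes, 2 keratins and 28 crystallins, were left out of the tests but kept in library sizes. An adjusted p under 0.05 was a call. Folds of genes at 0 are bounds taken at 3 counts per section. The fit was tested on simulated data. Python 3.11.15 was used for the sums.

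The members and gene lists were chosen with earlier results of these data known. Genes were named as the rule's own, as up to 4 list members per direction with the steepest calls and the 2 with most UMIs, and as at most 15 symbols higher and 15 lower, taken in order of adjusted p, and as the 10 symbols with most UMIs in stromal spots. List members beyond these, and the genes of the developmental ratio, were chosen after their values were seen. 1 gene of the matrix turnover list is not reported here by name, but is in its counts. Alternatives were other spot filters and thresholds, library size alone, DESeq2 1.42.0, no filter, no crystallin counts, no block and each section left out.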

Additional observations from a re-analysis of the deposited data

How the results depend on the processing

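Depth limits these results: 3 counts stand for 17.4 and 13.3 CPM in the stromal spots of adult eyes 1 and 2, and leaving out 1 of the 2 sections gave folds and no calls, with no residual degrees of freedom. For named genes 4457 values kept direction and call over the alternatives, 517 kept direction only and 14 reversed, and with a section left out 845 kept direction and 1 reversed. These genes were picked by their calls, and the ranked ones also by the same direction in both sections. The counts with a section left out were therefore largely set by the choice of genes and add no support. The cause of the shifts below was not tested unless said.

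Inside the gates, lower genes numbered 684 with at least 500 UMIs, 803 with at least 5 stromal UMIs, 642 without KERA in the rule, 905 with no filter on low counts and 834 with blood and muscle spots left out. Without the gates 880 genes were higher and 1037 lower, with library size alone 320 and 1137, and with DESeq2 251 and 153. The section block matters for counts: with no replicate block 651 genes were lower inside the gates, and 61 were higher in spots with KERA. Against keratin spots DESeq2 gave 141 higher and 123 lower, and edgeR with no filter gave 0 and 0, with 1396 of 12023 genes at an unadjusted p under 0.05. In the KERA split, a stromal share of 1% gave 36 higher and 37 lower, library size alone 62 and 190, DESeq2 24 and 43, crystallins under 5% 64 and 79, and blood and muscle under 1% 10 and 28. Against all other spots, lower genes numbered 486 with at least 500 UMIs and 472 with at least 5 stromal UMIs, a 1% share gave 237 higher and 163 lower, library size alone 2462 and 217, and DESeq2 235 and 184.

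Inside the gates 88 genes were tested from the 8 lists of matrix, corneal enzyme, fibroblast and signalling genes together. Their median log2 fold was 1.43, with 1.25 at a 1% share, 1.26 without gates, 0.85 with library size alone and 0.84 with no filter. It was 1.30 with crystallins under 5%, 1.79 with blood and muscle under 1%, and 1.32 to 1.43 with a section left out. For markers left out of the rule, the mean log2 ratio of DCN was 2.75 at a 1% share, 3.52 with crystallins under 5% and 2.82 with blood and muscle under 1%, and that of LUM 3.12 at 1%. The DCN value at 1% rests on 1 chosen spot in each section, with 1 and 6 DCN UMIs, so little can be read from it. For KERA the mean log2 ratio was 6.34 with at least 500 UMIs, 5.58 at 1%, 6.14 without gates, 6.38 with crystallins under 5% and 5.45 with blood and muscle under 1%. For fmoda it was 6.43 at 1% and 8.04 without gates. Stromal spots numbered 75 in adult eye 1 with crystallins under 5% and 84 in adult eye 2 at 1%. Against developmental sections, a ratio of 3 gave 79 higher and 13 lower genes, a ratio of 8 gave 13 and 4, and leaving a section out gave 12 to 17 lower.

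Leaving out blood and muscle spots removes by construction the spots that carry those genes, and the log2 folds inside the gates became 2.69 for CKM, 2.72 for MYLPF, 1.53 for mylz3, 0.32 for ENO3, 0.18 for hbaa2 (ENSABLG00000017310), 0.21 for hbaa2 (ENSABLG00000017319), 1.47 for TNNT3 and 3.48 for TNNC2 (ENSABLG00000021103). Against all other spots C1QA (-0.00847) and COL9A2 (-0.17), higher in the main setting, reversed at 1%. ACTA1 (1.45), lower in the main setting, reversed without gates. For sox9a the fold reversed without adult eye 2 (-0.081), against 2.18 without adult eye 1. In the KERA split LIM2 (ENSABLG00000016520, -0.068) and BFSP1 (-0.35) reversed at 1%, and postnb (0.13) without gates.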

Other observations

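A gene without a symbol, ENSABLG00000018021, chosen after its values were seen, was at 13697 and 3938 CPM in the stromal spots of adult eyes 1 and 2, against 309 and 65.7 CPM in the other spots inside the gates. The chemokine gene ccl25b fell to 533 and 443 CPM in stromal spots with a KERA UMI, against 4005 and 4628 CPM in those without (log2 fold -2.93 ± 0.23, edgeR adjusted p = 2.5e-09). B3GNT9, named for a glycosyltransferase, was at 308 and 467 CPM with KERA, against 57.2 and 70.4 CPM without.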
